A study of Mus musculus with 25 samples.

Results

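The 9 genes described here are RNAs that mark white blood cells, namely Jchain, Ptprc, Cd3e, Cd79a, Cd68, Lyz2, S100a8, S100a9 and Itgam, out of 24358 genes measured in sperm from the cauda epididymis. They were chosen by measured values: Jchain was selected because its estimated count was among the largest rises with prenatal DEHP in C57BL/6J, and the other 8 were chosen as common leukocyte markers to set beside it. The contrast of exposed with control F1 males of that strain is therefore given as a description. DEHP is di(2-ethylhexyl)phthalate, a plasticizer. All 9 genes had an accepted estimate in all 5 conditions.

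The study sequenced sperm RNA in 25 libraries by all-RNA-seq, 5 for each of 5 conditions. C57.CTL.F1 and FVB.CTL.F1 were C57BL/6J and FVB/N males whose mothers received corn oil by mouth from embryonic day 9 to 19. C57.D300.F1 and FVB.D300.F1 were males of the same strains whose mothers received 300 mg/kg/day DEHP in corn oil over the same days. C57.D300.F2 was the second C57BL/6J generation of the exposed lineage, for which there was no vehicle lineage of the same generation. Its males were fathered by exposed F1 males, and their mothers received no DEHP. In their name below, exposed therefore refers to the lineage and not to their own mothers. All males were 14 weeks old, and no transgene or mutation was described. The sperm swam out of the incised epididymis and were taken up away from debris, and no lysis of other cells was described. The study judged purity by viewing the sperm in a phase-contrast microscope before extraction and by read lengths after sequencing. The C57BL/6J F1 libraries, 10 in all, were re-analysed from earlier work, while the remaining 15 were newly made. Strain or generation and library set therefore cannot be told apart where a C57 F1 condition is compared with any of the other 3. Below, the conditions are called the C57 controls (C57.CTL.F1), exposed C57 F1 (C57.D300.F1), exposed C57 F2 (C57.D300.F2), the FVB controls (FVB.CTL.F1) and exposed FVB F1 (FVB.D300.F1), and values without names follow this order.

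The deposited table gave 1 estimated count per gene and condition, which combined the 5 libraries, together with the variance of that count under the Cuffdiff model. The square root of this variance is called the model SD below. It is not the spread between libraries, so no p-value is given and no difference has a replicate check. Counts summed to between 6921688 and 8602900 per condition, and the limit of detection was set at 3 counts. The summed level of 10 sperm and late germ cell RNAs ran from 86441 counts in the C57 controls down to 7121 in the FVB controls, and the 10 liver markers summed to 205123 counts in the C57 controls and 2419 in the FVB controls. In each list both re-analysed conditions were above the newly made ones in all 10 genes, as in 31% of all genes. Strain or generation differed there too. Within the newly made libraries, exposed C57 F2 had 29333 counts of the sperm list and 4879 of the liver list, above both FVB/N conditions. The part of these lists in the results below was not tested.

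White blood cells reach the epididymis through its vessels and live in its interstitium and epithelium, where macrophages and dendritic cells are the best known. Jchain encodes the joining chain that links IgA and IgM into polymers, and it is made by plasma cells and some B cells. Cd79a is a signalling chain of the B cell receptor and Cd3e of the T cell receptor. Ptprc encodes CD45, the phosphatase on all leukocytes. Itgam is the alpha chain of the integrin Mac-1 on myeloid cells, Cd68 a lysosomal glycoprotein of macrophages and Lyz2 the lysozyme of macrophages and granulocytes. S100a8 and S100a9 are neighbouring genes for the 2 calcium-binding chains of calprotectin, the main cytosolic protein of neutrophils. In bulk RNA such as this, fewer cells of a type and less RNA per cell cannot be told apart.

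The start regions of Jchain, S100a8 and S100a9 are shown because these 3 genes had the largest log2 ratios of the members with DEHP in 1 strain or both, in either direction. Each run is 300 bases of RefSeq sequence on GRCm38.p6, from 250 bases before the annotated start to 50 bases from it onwards, read 5′ to 3′ on the strand of the gene. Capitals mark matches on either strand to TATAAA, the TATA box, to AGGAAG, a core of PU.1 sites, and to TTGCNNAA, a pair of C/EBP half-sites.
Jchain, chr5:88527848-88528147, minus strand: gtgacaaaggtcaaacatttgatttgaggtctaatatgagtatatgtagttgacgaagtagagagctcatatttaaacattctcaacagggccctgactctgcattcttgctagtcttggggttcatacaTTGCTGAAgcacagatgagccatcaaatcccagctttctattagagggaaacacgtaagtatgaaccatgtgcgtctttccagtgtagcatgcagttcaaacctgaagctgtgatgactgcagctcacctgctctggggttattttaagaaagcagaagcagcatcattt
S100a8, chr3:90668821-90669120, plus strand: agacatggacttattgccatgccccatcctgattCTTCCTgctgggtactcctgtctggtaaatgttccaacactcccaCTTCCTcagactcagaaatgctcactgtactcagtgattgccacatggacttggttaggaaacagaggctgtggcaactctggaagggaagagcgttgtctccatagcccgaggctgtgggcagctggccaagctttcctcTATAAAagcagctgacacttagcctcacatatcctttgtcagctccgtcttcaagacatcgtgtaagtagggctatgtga
S100a9, chr3:90695672-90695971, minus strand: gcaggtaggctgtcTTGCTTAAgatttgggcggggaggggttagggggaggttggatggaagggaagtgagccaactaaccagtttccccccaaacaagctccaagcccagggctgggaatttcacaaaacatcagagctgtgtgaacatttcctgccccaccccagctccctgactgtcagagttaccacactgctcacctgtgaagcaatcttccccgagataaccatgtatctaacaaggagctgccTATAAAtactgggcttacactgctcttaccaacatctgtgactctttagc

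The Jchain window held 1 TTGCNNAA match, 120 bases before the start, and neither of the other motifs. The S100a8 window held TATAAA 30 bases before the start and 2 AGGAAG matches at 216 and 171 bases before it, read here as CTTCCT. The S100a9 window held TTGCNNAA 236 bases before the start and a TATAAA that began at the annotated start base itself. No motif searched was found in the windows of both S100a8 and S100a9 other than TATAAA. Of 32851 mouse promoter windows of this length, 13.6% held TATAAA, 35.4% AGGAAG and 10.8% TTGCNNAA. All 9 members were found in the promoter table, and AGGAAG was present in a window of Ptprc, Cd3e, Cd79a, Lyz2 and Itgam. These matches describe letters only.

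Jchain spans chr5:88519809-88527891 on the minus strand (GENCODE M21, GRCm38). Its estimated count was 25.6 in the C57 controls, 251 in exposed C57 F1, 76.8 in exposed C57 F2, 14.6 in the FVB controls and 17.5 in exposed FVB F1. The model SDs were 9.47, 80.8, 22.3, 6.27 and 7.14 in that order. Exposed C57 F1 stood above all other conditions, exposed C57 F2 came second, and the other 3 were low. Between the C57 F1 conditions the count was 9.84-fold higher with DEHP, a log2 ratio of 3.25 on counts with 1 added, and the difference of 226 counts was larger than its model SD of 81.4. This ratio was the 5th highest among 16825 tested genes, meaning those that reached 10 counts on at least 1 side of the contrast.

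Only 6 genes, or 0.0357%, were called higher in that contrast, which means by at least 2 log2 units, and 0.256% were called lower. The genes just above Jchain in the order were Gm5643 and Rbp2, a retinol-binding protein whose count went from 154 to 2540. The gene just below was Ccl21a, a chemokine that draws T cells and dendritic cells to lymph nodes, with 2.35 counts in the C57 controls and 12.9 in exposed C57 F1 and a log2 ratio of 2.06. Ccl21a has near-identical copies in the mouse genome, so its count is uncertain. The next gene, 1700123J17Rik, was at 1.92 and outside the threshold.

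The genes that flank Jchain on chromosome 5 had other values. Utp3, which follows it, had 135 counts in the C57 controls and 155 in exposed C57 F1, and Rufy3 had 314 and 341. Enam, on the other side, was at 2.38 and 3.03 counts, around the limit of detection. The model CV of Jchain in exposed C57 F1 was 0.321, which is 1.35 times the median of the 200 genes nearest in count. In the other 4 conditions this ratio lay between 0.986 and 1.04.

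In FVB/N, which the rule did not use, Jchain was at 14.6 counts in the controls and 17.5 in the exposed males, and the log2 ratio was 0.25. The difference of 2.98 counts was smaller than its model SD of 9.51. Both FVB/N values were below that of the C57 controls. The strain by exposure interaction, the log2 ratio in FVB/N minus that in C57BL/6J, was -2.996 for Jchain, past the threshold that 0.228% of 17556 genes passed in this direction. The C57BL/6J ratio within this value is the one on which Jchain was chosen. In exposed C57 F2 the count of 76.8 was 1.55 log2 units above the C57 controls and 1.70 below exposed C57 F1. Within the newly made libraries, Jchain was 2.32 log2 units lower in the FVB controls than in exposed C57 F2, where 2.5% of 16969 genes were called lower and 0.707% higher, and 1.82 units lower with 10 counts added, short of the threshold of 2.

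**Figure D1:**
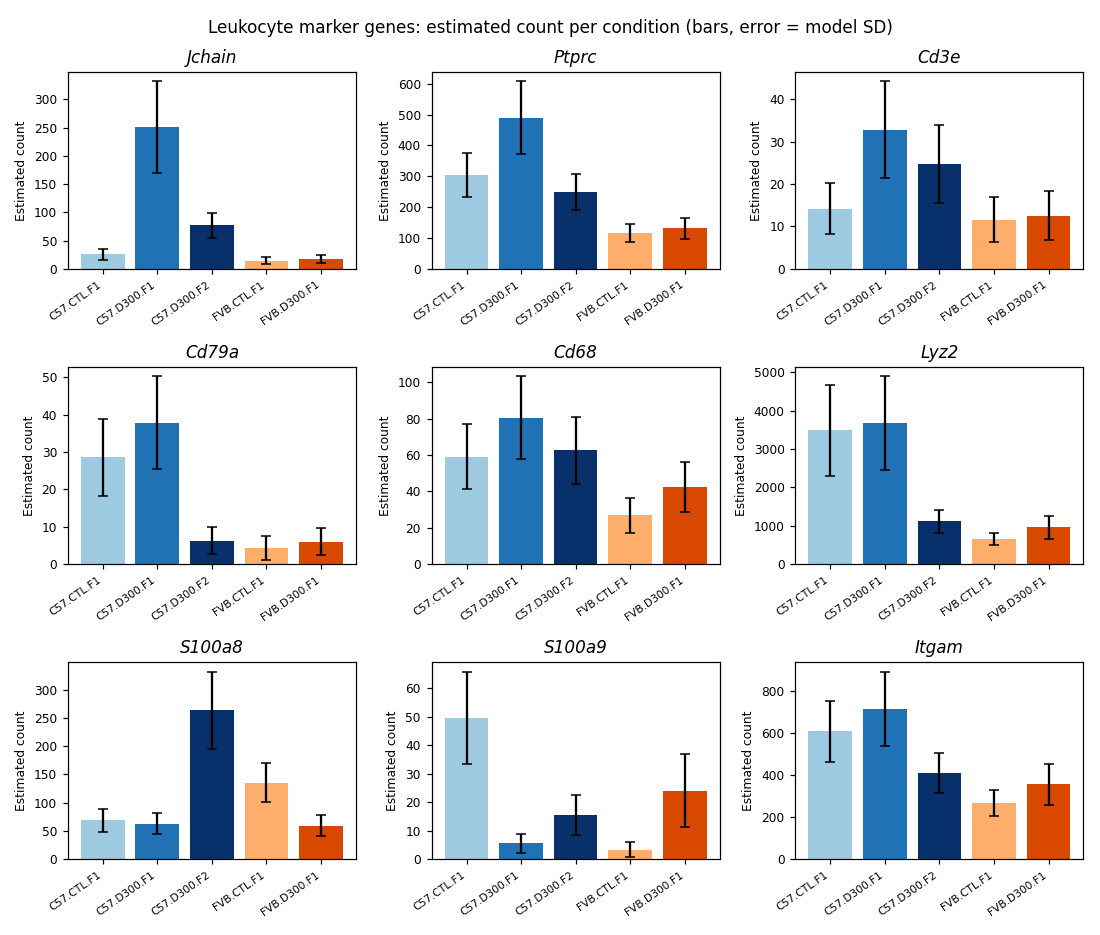
Each panel plots 1 gene, with its estimated count on the y axis (from 0) and the 5 conditions on the x axis, where bars are the authors' value for a condition and error bars are the model SD. Jchain stands at 251 in C57.D300.F1 against 14.6 to 76.8 elsewhere, while S100a8 is highest in C57.D300.F2 (263) and S100a9 in C57.CTL.F1 (49.6).

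The receptor chains of the 2 kinds of lymphocyte differed from each other. Cd79a (chr7:24897381-24902197, plus strand) had 28.6 counts in the C57 controls, 37.9 in exposed C57 F1, 6.29 in exposed C57 F2, 4.31 in the FVB controls and 6.02 in exposed FVB F1. It was high in both re-analysed conditions and close to the limit of detection in the newly made ones. The log2 ratio with DEHP was 0.39 in C57BL/6J, and in FVB/N neither count reached 10. Cd79a was called lower in exposed C57 F2 than in the C57 controls, at -2.02, where 3.61% of 17114 genes were called lower and 0.584% higher. This call was lost under all 3 other scalings, at -1.76 with equal totals, -1.99 with median-of-ratios and -1.77 with the upper quartile. It was also called lower in exposed C57 F2 than in exposed C57 F1, at -2.41, in the FVB controls than in the C57 controls, at -2.48, and in exposed FVB F1 than in exposed C57 F1, at -2.47. With 10 counts added in place of 1, these 4 ratios lay between -1.25 and -1.58, short of the threshold.

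Cd3e (chr9:44998740-45009627, minus strand) had 14.2 counts in the C57 controls, 32.8 in exposed C57 F1, 24.7 in exposed C57 F2, 11.6 in the FVB controls and 12.6 in exposed FVB F1. The 2 conditions of the exposed C57BL/6J lineage were the highest. In C57BL/6J the log2 ratio with DEHP was 1.15, and the difference exceeded its model SD, whereas in FVB/N it was 0.11 and did not. Cd3e was not called in any comparison.

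Ptprc (chr1:138062861-138175708, minus strand) had 306 counts in the C57 controls, 490 in exposed C57 F1, 249 in exposed C57 F2, 116 in the FVB controls and 132 in exposed FVB F1, with model SDs of 71.3, 118, 59.3, 29.8 and 34.0. It was highest in exposed C57 F1 and lowest in both FVB/N conditions. The log2 ratio with DEHP was 0.68 in C57BL/6J, where the difference of 184 counts exceeded its model SD of 138, and 0.19 in FVB/N, where it did not.

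Of the myeloid members, Lyz2 (chr10:117277331-117282321, minus strand) was the most abundant. It had 3486 counts in the C57 controls, 3678 in exposed C57 F1, 1113 in exposed C57 F2, 654 in the FVB controls and 956 in exposed FVB F1. Both re-analysed conditions were thus over 3 times any newly made one. The log2 ratios with DEHP were 0.08 in C57BL/6J and 0.55 in FVB/N. Lyz2 was called lower in the FVB controls than in the C57 controls, at -2.41, where 8.88% of 17086 genes were called lower and 1.44% higher. Its close paralog Lyz1, with which it may share reads, had 333, 444, 139, 48.6 and 49.8 counts in the same order of conditions.

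Itgam (chr7:128062640-128118491, plus strand) had 606, 713, 411, 268 and 356 counts in the order the C57 controls, exposed C57 F1, exposed C57 F2, the FVB controls and exposed FVB F1. Cd68 (chr11:69664213-69666153, minus strand) had 59.0, 80.7, 62.6, 26.9 and 42.3 counts in the same order. Both were highest in exposed C57 F1 and lowest in the FVB controls. The log2 ratios with DEHP were 0.23 and 0.41 for Itgam and 0.44 and 0.63 for Cd68, in C57BL/6J and FVB/N respectively. None of the 4 differences exceeded its model SD.

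S100a8 and S100a9 followed different patterns although their products pair. S100a8 (chr3:90668978-90670035, plus strand) had 68.8 counts in the C57 controls, 62.9 in exposed C57 F1, 263 in exposed C57 F2, 135 in the FVB controls and 59.2 in exposed FVB F1, with model SDs of 19.9, 18.8, 68.7, 34.3 and 18.4. S100a9 (chr3:90692632-90695721, minus strand) had 49.6, 5.53, 15.4, 3.36 and 24.1 counts, with model SDs of 16.3, 3.23, 7.03, 2.72 and 12.8. S100a8 was highest in exposed C57 F2, whereas S100a9 was highest in the C57 controls and close to the limit of detection in exposed C57 F1 and the FVB controls.

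With DEHP in C57BL/6J, S100a9 was 8.97-fold lower, a log2 ratio of -2.95, which ranked 27th from the lowest of 16825 genes. The difference exceeded its model SD of 16.6 counts. With 10 counts added in place of 1 the ratio was -1.94, short of the threshold. S100a8 had a log2 ratio of -0.13 in the same contrast. With DEHP in FVB/N, S100a9 was 7.16-fold higher, a log2 ratio of 2.52, where 0.662% of 16471 genes were called higher and 0.0182% lower. The difference of 20.7 counts stood against a model SD of 13.1, and the model CV of S100a9 was 1.66 times that of genes of similar count in the FVB controls and 1.41 times in exposed FVB F1. With 10 counts added this ratio was 1.35, and S100a9 did not reach 100 counts on either side in either strain. S100a8 went the other way in FVB/N, at -1.18, and its difference exceeded the model SD as well. The interaction was 5.48 for S100a9, past the threshold that 0.997% of genes passed in this direction, and -1.05 for S100a8.

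Per base of exon, S100a8 was 1.04 times S100a9 in the C57 controls, 8.57 times in exposed C57 F1, 12.9 times in exposed C57 F2, 30.3 times in the FVB controls and 1.85 times in exposed FVB F1. The ratio of this pair was thus under 2 in the C57 controls and in exposed FVB F1 and over 8 in the other 3 conditions. In exposed C57 F1, exposed C57 F2 and the FVB controls the S100a9 counts were 5.53, 15.4 and 3.36. Their model SDs were 3.23, 7.03 and 2.72, so the size of the larger ratios is uncertain. In the distance of profiles described below, S100a8 ranked 10556th of 11238 genes in likeness to S100a9, whose own counts were too low for it to be among those genes. Other S100 genes of the same chromosome 3 cluster with measurable counts moved less with DEHP than S100a9. S100a6 had 757 counts in the C57 controls and 768 in exposed C57 F1, and 690 and 657 in the FVB controls and exposed FVB F1. S100a4 had 46.7 and 97.4 counts in the C57 F1 conditions, a log2 ratio of 1.05, and 47.7 and 46.0 in FVB/N. S100a8 was called higher in exposed C57 F2 than in exposed C57 F1, at 2.05, where 0.333% of 17133 genes were called higher and 3.3% lower, but the ratio was 1.91 with 10 counts added, short of the threshold. Against the C57 controls the ratio of S100a8 in exposed C57 F2 was 1.92, which became a call at 2.21 with equal totals and 2.20 with the upper quartile.

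**Figure D2:**
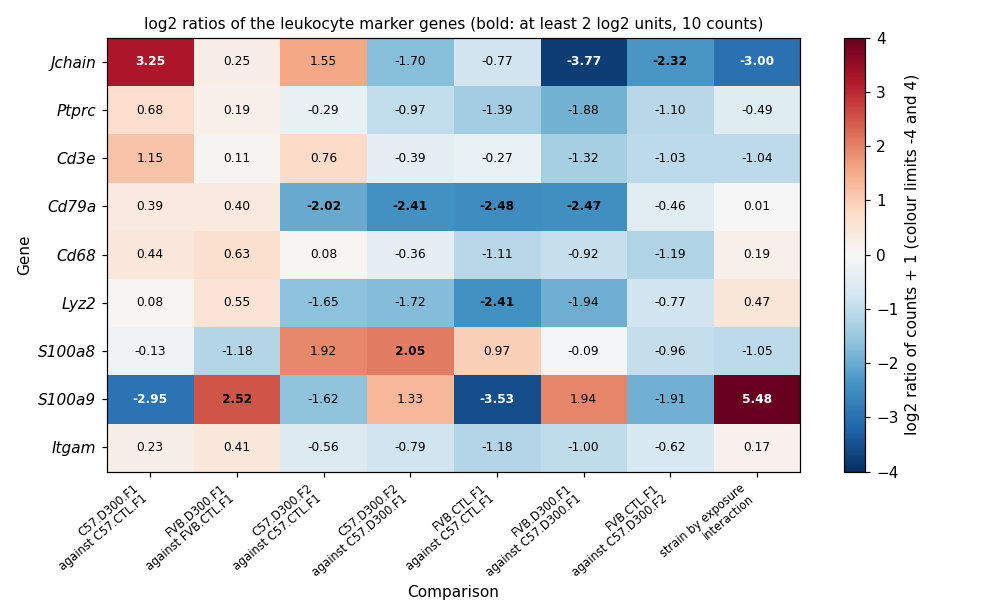
The heat map gives the log2 ratio of counts with 1 added for each of the 9 genes (y axis) in each comparison (x axis), with red for higher and blue for lower in the condition named first, and bold print for values called at 2 log2 units. The signs of Jchain and S100a9 in the C57 contrast with DEHP are opposite (3.25 and -2.95), and S100a9 has 2.52 in the FVB contrast.

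Over the 9 genes, the median log2 ratio with DEHP was 0.39 in C57BL/6J and 0.40 in FVB/N, beside -0.01 and 0.0046 over all genes tested. Of the members, 7 had a positive ratio in C57BL/6J and 8 in FVB/N. The rule used the first of these contrasts, so nothing is read from its count. The medians were -1.18 for the FVB controls against the C57 controls and -1.32 for exposed FVB F1 against exposed C57 F1, with 8 of 9 members lower in each. In the first, S100a9 was called lower at -3.53, a 14.7-fold difference that rests on 3.36 counts in the FVB controls, near the limit of detection. Cd79a and Lyz2 were called lower there too, where 8.88% of 17086 genes were called lower and 1.44% higher. In the second of these, Jchain at -3.77 and Cd79a were called lower, where 7.67% of 17377 genes were called lower and 2.65% higher. In the contrast of the FVB controls with exposed C57 F2, which lies within the newly made libraries, all 9 members were lower, with a median of -1.03 beside -0.0041 over all genes. Its 2 conditions differ in strain, exposure of the lineage and generation at once. The medians of exposed C57 F2 were -0.29 against the C57 controls and -0.79 against exposed C57 F1, beside -0.04 and -0.05 over all genes, and that of the interaction was 0.01 beside 0.03.

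Both re-analysed conditions lay above all 3 newly made ones for 4 of the 9 members, namely Ptprc, Cd79a, Lyz2 and Itgam. The same held for 5496 of 17701 genes, or 31%. The gap between the lowest re-analysed and the highest newly made value was 2.02 log2 units for Cd79a, 1.65 for Lyz2, 0.56 for Itgam and 0.29 for Ptprc. Jchain, Cd3e, Cd68, S100a8 and S100a9 did not divide in this way.

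Levels of different genes were compared as counts per 1000 bases of exon. Lyz2 was the highest member in all 5 conditions, from 497 in the FVB controls to 2795 in exposed C57 F1, and the difference from the next gene exceeded its model SD each time. Jchain stood at 10.2 in the C57 controls, in 8th place of 9, and at 99.9 in exposed C57 F1, in 3rd place. There it did not differ beyond the model SD from Itgam above it (142) or S100a8 below it (90.7). In exposed C57 F2 it was in 5th place at 30.5, within the model SD of S100a9 at 29.5. In the FVB controls and exposed FVB F1 it was 7th at 5.78 and 6.97, within the model SD of Ptprc above and Cd79a below it. Cd3e was last in every condition except exposed C57 F2, where Cd79a was last.

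The wider marker lists describe the leukocyte RNAs beside these genes. Of the lists below, the counts of positive ratios in C57BL/6J held under all 3 other scalings for the pan-leukocyte, T and NK cell, B cell, plasma cell, dendritic cell, integrin, mast cell and neutrophil lists. Of 20 pan-leukocyte genes, 20 had a positive log2 ratio with DEHP in C57BL/6J, with a median of 0.36, and 0 were called in either direction. In FVB/N 11 were positive and the median was 0.03, which turned to -0.05 with equal totals between conditions. Besides Ptprc, the largest in C57BL/6J were Spi1, the transcription factor PU.1, from 62.7 to 111 counts, and Laptm5, a lysosomal protein of blood cells, from 161 to 265. The count of Cd52 was 24861 in the C57 controls and 43515 in exposed C57 F2, and this gene is also made by epididymal epithelium. Lcp1, the actin bundler L-plastin, came next with 1573 in exposed C57 F1. Without Cd52 the list summed to 4801, 6188, 4061, 2795 and 3117 counts in the order the C57 controls, exposed C57 F1, exposed C57 F2, the FVB controls and exposed FVB F1. Both re-analysed conditions were above the newly made ones in 16 of its 20 genes, as in 31% of all genes.

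Of 22 T and NK cell genes, 21 had a positive ratio with DEHP in C57BL/6J, with a median of 0.73, and 8 in FVB/N, with a median of -0.17. None of the 19 and 14 genes tested was called. Cd3g, another chain of the receptor, went from 14.5 to 30.7 counts in C57BL/6J, Lck, the kinase that starts its signal, from 22.3 to 43.0, and Ncr1, an NK cell receptor, from 8.90 to 23.0. Cd3d did not share this, with 31.0 and 31.7 counts. The largest counts of the list in any condition were those of Thy1 (104 in exposed C57 F1) and Cd2 (85.9 in the C57 controls), and Cd2 had the only negative ratio, at -0.70.

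The B cell list had another pattern than Jchain. Of 12 B cell genes measured, 7 had a positive ratio with DEHP in C57BL/6J, with a median of 0.23, and 7 of 12 in FVB/N, with a median of 0.08. None was called. Ms4a1, which encodes CD20, had 139, 165, 11.8, 8.43 and 7.60 counts from the C57 controls to exposed FVB F1 in the order used above. Blnk had the largest count of the list, 181 in exposed C57 F2, and Bank1 reached 167 in exposed C57 F1. In 9 of the 12 genes both re-analysed conditions exceeded the newly made ones, as in 31% of all genes, and 8 of 12 were called lower in the FVB controls than in the C57 controls, where 8.88% of all genes were. Blnk, Cr2 and Btk did not divide by library set, and Blnk had 144, 127, 181, 178 and 133 counts. Cd79a, itself in this list, was among the 9 genes that divided, whereas Jchain in exposed C57 F2, at 76.8 counts, was above its value in the C57 controls.

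**Figure D3:**
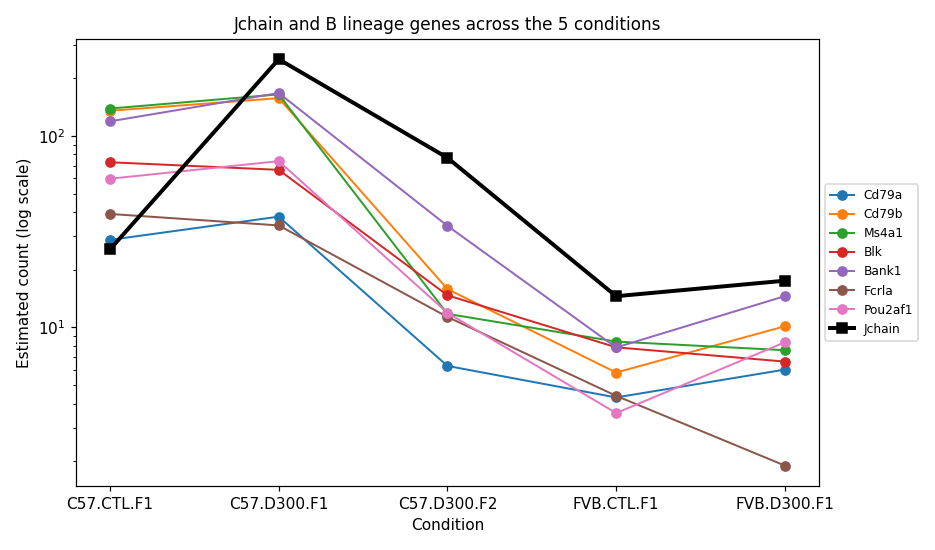
The estimated count on a log scale (y axis) is drawn over the 5 conditions (x axis) for Jchain (black squares) and 7 B lineage genes selected after their values were seen (coloured points), joined by lines only to guide the eye. These 7 genes are high in both C57 F1 conditions and low in the other 3, while Jchain goes from 25.6 to 251 and stays at 76.8 in C57.D300.F2. Blnk, Cr2 and Btk of the B cell list, which did not divide by library set, are not drawn.

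Of 8 plasma cell genes other than Jchain, 6 had a positive ratio with DEHP in C57BL/6J and 6 in FVB/N, with medians of 0.36 and 0.68, and 0 were called. Mzb1, a chaperone of immunoglobulin assembly, went from 12.3 to 20.3 counts in C57BL/6J and from 6.18 to 12.5 in FVB/N. Tnfrsf17, the survival receptor BCMA, had 3.77 and 9.36 counts in the C57 F1 conditions, and Prdm1, the regulator of plasma cell fate, 17.6 and 28.0. Derl3 was lower in exposed C57 F1, with 16.1 against 32.2 counts. The largest counts of the list were those of Xbp1, a factor that many secretory cells express, with 823 in the C57 controls and 703 in exposed C57 F1, and of Sdc1, which epithelia also express, with 415 and 446. Immunoglobulin heavy and light chains, the partners of the joining chain, were not analysed here.

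Pigr, the epithelial receptor that carries polymers with a joining chain across an epithelium, had 1692 counts in the C57 controls, 2408 in exposed C57 F1, 62.1 in exposed C57 F2, 31.5 in the FVB controls and 16.7 in exposed FVB F1. Its log2 ratio with DEHP was 0.51 in C57BL/6J and -0.88 in FVB/N, and it divided by library set. Of 8 genes of the polymeric immunoglobulin route other than Jchain, 5 had a positive ratio in each strain, with medians of 0.43 and 0.07, and 0 were called. Tnfsf13, the plasma cell survival factor APRIL, had 38 and 51 counts in the C57 F1 conditions and 20.2 and 28.3 in FVB/N. Ccl28, a chemokine that draws IgA plasma cells, had 39.9 and 34.8, and 39.1 and 43.4.

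Of 22 macrophage and monocyte genes, 17 had a positive ratio with DEHP in C57BL/6J and 10 in FVB/N, with medians of 0.25 and -0.07, and 0 were called. Equal totals between conditions made the first count 19. Ccr2, the receptor of inflammatory monocytes, went from 127 to 278 counts in C57BL/6J and from 53.0 to 37.3 in FVB/N. Siglec1, a sialic acid receptor of macrophages, went from 223 to 406 and from 179 to 155. After Lyz2 the largest count was that of Mrc1, the mannose receptor, with 913 in the C57 controls and 1306 in exposed C57 F1. The summed level was 11625, 13557, 8647, 4950 and 5118 counts from the C57 controls to exposed FVB F1.

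Of 9 dendritic cell genes, 9 had a positive ratio in C57BL/6J and 2 in FVB/N, with medians of 0.47 and -0.21, and 0 were called. Clec9a, a receptor of cross-presenting dendritic cells, went from 26.3 to 51.6 counts in C57BL/6J and from 21.8 to 17.0 in FVB/N. Zbtb46, a transcription factor of the same lineage, had the largest count of the list, 81.3 in exposed C57 F1. Of 8 leukocyte integrins, 8 were positive in C57BL/6J and 5 in FVB/N, with medians of 0.30 and 0.11. Itgal, the alpha chain of LFA-1, went from 89.4 to 169 counts in C57BL/6J, and Itga4, the largest of the list after Itgam, from 435 to 557. Of 10 mast cell, basophil and eosinophil genes, 7 were positive in C57BL/6J and 8 in FVB/N, with medians of 0.35 and 0.22, and 0 were called. Their largest counts were those of Cpa3 (179) and Cma1 (176), both in exposed C57 F1.

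Of 21 neutrophil genes, 11 had a positive ratio with DEHP in C57BL/6J and 17 in FVB/N, with medians of 0.02 and 0.46. S100a9 was called lower in the first and higher in the second, and no other gene of the list was called. Both calls rest on counts near the limit of detection on 1 side, 5.53 and 3.36, and both were lost with 10 counts added or a minimum of 100 counts. The defining granule genes were at or near 0 in all conditions. Elane, neutrophil elastase, had at most 1.61 counts, Ngp at most 1.56, Camp at most 2.27 and Mpo at most 4.96. Ltf, lactotransferrin, had the largest count with 48225 in the FVB controls, and Lcn2 reached 1113 in exposed FVB F1, and epithelia of the male tract also make both. Of the other genes, Mmp8, neutrophil collagenase, had 14.9 and 40.4 counts in the FVB/N conditions. Without Ltf and Lcn2 the summed level was 1258, 1526, 1855, 913 and 1180 counts from the C57 controls to exposed FVB F1.

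**Figure D4:**
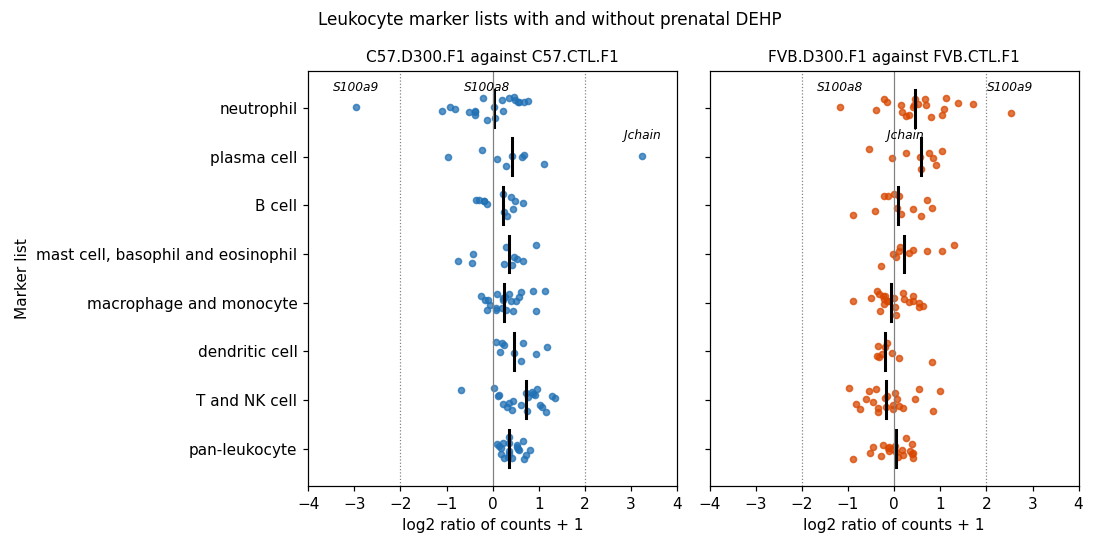
Each point is 1 gene of a marker list (y axis), placed at its log2 ratio with DEHP (x axis) in C57BL/6J (left) and FVB/N (right). Black ticks are list medians, dotted lines mark 2 log2 units, and points are spread vertically only for view. In C57BL/6J the pan-leukocyte and dendritic cell points all lie above 0. Jchain, which was chosen for its rise in this contrast, is at 3.25. S100a9 is at -2.95, a ratio that rests on 5.53 counts in exposed C57 F1, near the limit of detection.

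Of 10 red cell and platelet genes, 7 had a positive log2 ratio with DEHP in FVB/N and 3 a negative one. Of the 8 tested, 2 were called higher, where 0.662% of all genes were. These were Hba-a2, with 411 counts in the FVB controls and 2213 in exposed FVB F1, and Hbb-bs, with 453 and 2276. The median of the 10 red cell and platelet genes was 1.37 in FVB/N and 0.02 in C57BL/6J, and their summed level was 2025, 2047, 3248, 1362 and 5522 counts from the C57 controls to exposed FVB F1. Globin genes have near-identical copies, so single values are uncertain. In C57BL/6J, where S100a9 was 8.97-fold lower, blood markers did not move together. Hba-a2 had 423 and 414 counts there and Hbb-bs 573 and 730, whereas Alas2, the first enzyme of haem synthesis in red cells, had 710 and 531. Hbb-b1, another globin, had 487 and 178 counts in C57BL/6J and 201 and 890 in FVB/N, and Bpgm, an enzyme of red cell glycolysis, had 268 and 109.7, and 83.1 and 117. Hbb-b1 and Bpgm stand outside the list and are named because their patterns were among the 5 most like that of S100a9, so their going the same way as S100a9 in both strains is a description only. The part of blood RNA in the values of S100a9 was not tested.

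Markers of the male tract were also called with DEHP. In C57BL/6J all 9 seminal vesicle genes (Svs1, Svs2, Svs3a, Svs3b, Svs4, Svs5, Svs6, Pate4 and Spinkl) were called lower, with a median of -10.41. So was Spink1, 1 of 4 tested among 8 prostate and coagulating gland genes, where 0.256% of all genes were called lower. The largest of the genes called, Svs4, had 63518 counts in the C57 controls and 28.8 in exposed C57 F1. In FVB/N 6 of 13 tested epididymal genes were called higher, namely Lcn5, Lcn8, Lcn9, Gpx5, Cst11 and Adam28. Of the epididymal genes 10 had a positive ratio and 3 a negative one. The prostate gene Pbsn, 1 of 5 tested, was also called higher, where 0.662% of all genes were. Gpx5, the largest of the genes called there, had 71.4 counts with vehicle and 24121 with DEHP. The medians of the 13 smooth muscle and connective tissue genes were -0.42 in C57BL/6J and -0.49 in FVB/N. Of the 10 liver genes, the median was -0.49 and -0.50, and of the 10 sperm and late germ cell genes -0.13 and 0.35. How these moved with the leukocyte markers was not tested.

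Likeness of pattern was measured as the root mean square difference between 2 genes in log2 of the count with 1 added, after subtracting each gene's mean over the 5 conditions. Ranks are among 11238 genes with at least 100 counts in 1 condition. Members that did not reach 100 counts, such as S100a9 and Cd3e, were measured in the same way but are not among these genes. A smaller difference means a closer pattern, and it rests on 5 conditions only. The 5 genes most like Jchain were Pvalb (0.54), Cxcl13 (0.60), Mybpc2 (0.61), Stk-ps2 (0.65) and Xirp2 (0.65). Pvalb, parvalbumin of fast muscle fibres, had 55.0, 190, 70.9, 17.9 and 14.0 counts from the C57 controls to exposed FVB F1. Cxcl13, the chemokine that draws B cells into follicles, had 34.5, 101, 40.9, 11.9 and 15.7. Mybpc2 and Xirp2 are structural genes of striated muscle. Among the members, Ptprc was the most like Jchain, at 0.93 and in 65th place, and Cd3e came next at 0.96. S100a8 was nearest to Eya2 (0.34), and S100a9 was nearest to 2700070H01Rik (0.78), with the erythroid genes Bpgm, Alas2 and Hbb-b1 also among its 5.

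Because 3 of these 5 genes are expressed in skeletal muscle, a list of 18 skeletal muscle genes was examined after the values were seen. Its summed level was 5545 counts in the C57 controls, 11924 in exposed C57 F1, 6289 in exposed C57 F2, 3755 in the FVB controls and 2245 in exposed FVB F1. With DEHP, 18 of 18 genes had a positive ratio in C57BL/6J, with a median of 1.26, and 17 of 18 a negative one in FVB/N, with a median of -0.69. None was called. Myh4, a fast myosin, had 1183 and 2903 counts in the C57 F1 conditions and 227 and 135 in FVB/N, and Neb, nebulin, had 1112 and 2334, and 1859 and 1137. The list was prompted by genes picked for their likeness to Jchain, so its rise in C57BL/6J is a description only. In FVB/N the list went down while Jchain had a log2 ratio of 0.25. The part of muscle RNA in the higher count of Jchain was not tested.

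**Figure D5:**
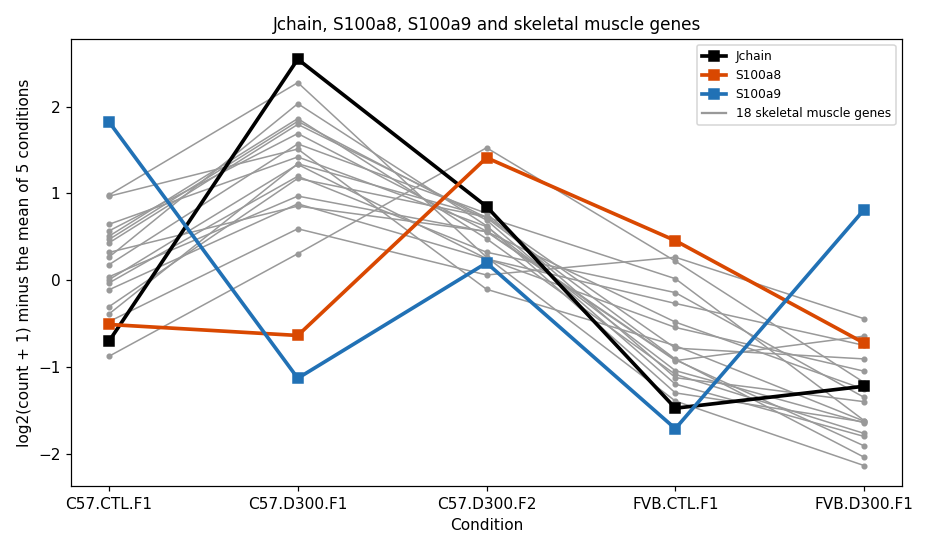
The log2 of the count with 1 added, minus the mean over the 5 conditions (y axis), is drawn over the conditions (x axis) for Jchain (black), S100a8 (orange), S100a9 (blue) and 18 skeletal muscle genes (grey). The muscle genes and Jchain peak in C57.D300.F1, apart from Myh1, which peaks in C57.D300.F2 (413 counts), while S100a8 peaks in C57.D300.F2 and S100a9 in C57.CTL.F1.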

How the data were processed

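RNA of cauda epididymal sperm was measured by all-RNA-seq in 25 libraries. The authors removed adapters, kept reads of at least 18 bases, mapped them to mm10 with TopHat and quantified genes with Cuffdiff. CASAVA 1.8.2 is named in the submitters' processing notes. The release of the gene annotation is not given in the sources used here. The deposited signal is 1 estimated count per gene and condition, which Cuffdiff scaled between libraries and which is not divided by length. The deposited count variance was used only as the model's SD, and a status column marked 71 of 24358 genes as failed in at least 1 condition. In all, 15 columns were used and 0 columns of samples were left unused.

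Log2 ratios had 1 count added, and genes with at least 10 counts in 1 compared condition were called at 2 log2 units. A limit of 0.5 log2 units defined a value as moved. Since each condition has 1 value, no test, SD between libraries or p-value was computed. The range of summed estimated counts per condition is given above. These sums are of scaled counts and are not sequencing depth. The calling step was run on simulated counts. Changes were planted only in genes whose control count was well above the limit of detection and larger than its model SD. The outcome of this run is not used as support for any call here. Coordinates and exon lengths are those of GENCODE M21. Python 3.11.15, numpy 2.4.6, pandas 2.3.3 and matplotlib 3.10.9 were used.

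The members and lists were chosen with earlier results of these data known. The genes named are the 9 members, genes of 17 lists that were called with DEHP, or had the 2 largest counts of a list where a result turns on them, and the 5 genes most like Jchain. Other list genes named, the skeletal muscle list, neighbours in the genome or in the order, and genes most like S100a8 and S100a9 were chosen after their values were seen. Single values of 2 list genes are not reported here. Scaling, pseudocount, minimum count, threshold, detection limit and model SD were varied.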

Additional observations from a re-analysis of the deposited data

Results flagged for a closer look

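S100a9 had opposite ratios with DEHP in the 2 strains, -2.95 in C57BL/6J and 2.52 in FVB/N on the log2 scale, and the interaction was 5.48. The counts were 49.6 and 5.53 in the C57 controls and exposed C57 F1, and 3.36 and 24.1 in the FVB controls and exposed FVB F1. The difference between strains was not tested, because each condition has 1 value. Both ratios have a count near the limit of detection on 1 side. With 10 counts added in place of 1, the ratios were -1.94 and 1.35, both short of the threshold, and the interaction was 3.29. With a minimum of 100 counts neither ratio was tested.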

How the results depend on the processing

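No paired analysis was possible because each condition has 1 combined value, and for the same reason no library could be left out. All 48 alternative values of the members' medians moved by less than 0.5 log2 units, and they kept their direction except in the interaction, where the median of 0.01 was -0.16 with equal totals, -0.03 with the upper quartile and -0.15 with 10 counts added. Among log2 ratios of single members 13 alternatives moved further and 419 did not. All 13 came with 10 counts added, which took S100a9 to -1.94 in C57BL/6J and 1.35 in FVB/N with DEHP. Of the alternative numbers of members called, 25 moved and 55 did not. With 10 counts added the number went from 2 to 1 for DEHP in C57BL/6J and for exposed FVB F1 against exposed C57 F1, from 2 to 0 for exposed C57 F2 against exposed C57 F1, and from 1 to 0 for DEHP in FVB/N, exposed C57 F2 against the C57 controls and the FVB controls against exposed C57 F2. With a minimum of 100 counts it was 1 for DEHP in C57BL/6J, exposed C57 F2 against exposed C57 F1, the FVB controls against the C57 controls, exposed FVB F1 against exposed C57 F1 and the interaction, and 0 for the other 3. With a threshold of 1 log2 unit it was 2 for DEHP in FVB/N, 4 for the interaction, 6 for the FVB controls against the C57 controls, 7 for exposed FVB F1 against exposed C57 F1 and 5 for exposed C57 F2 against both C57 F1 conditions and the FVB controls against exposed C57 F2. In exposed C57 F2 against the C57 controls all 3 other scalings took Cd79a below the threshold, which left 0 calls with median-of-ratios, while equal totals and the upper quartile kept the number at 1 because S100a8 was called higher there, at 2.21 and 2.20. In exposed FVB F1 against exposed C57 F1, S100a9 was called higher with the upper quartile, at 2.05. For the FVB controls against exposed C57 F2, equal totals, the upper quartile and 0.1 counts added each gave 2 in place of 1. The number of members called therefore depended on the scaling, pseudocount, minimum count and threshold chosen.

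Over all genes, 52 alternative numbers of calls moved by over 1.5 times and 108 did not. For DEHP in C57BL/6J they ran from 3 to 184 higher and from 26 to 193 lower, beside 6 and 43. In FVB/N the lower ones ran from 1 to 102, beside 3, and 355 were higher at 1 log2 unit, beside 109. Higher and lower calls ran from 27 to 702 and up to 1739, beside 100 and 617, for exposed C57 F2 against the C57 controls, from 23 to 461 and up to 1430, beside 57 and 566, for exposed C57 F2 against exposed C57 F1, from 98 to 1282 and 941 to 3207, beside 246 and 1518, for the FVB controls against the C57 controls, from 222 to 2091 and 842 to 3457, beside 460 and 1332, for exposed FVB F1 against exposed C57 F1, from 56 to 713 and 162 to 1964, beside 120 and 424, for the FVB controls against exposed C57 F2, and from 111 to 782 and 13 to 513, beside 175 and 40, for the interaction. Equal totals moved the median of all genes from -0.04 to 0.26 for exposed C57 F2 against the C57 controls, the largest shift, and the sign of S100a8 in exposed FVB F1 against exposed C57 F1 and of Cd79a and Itgam in the interaction, all near 0, turned under another scaling. Summed levels of the pan-leukocyte list without Cd52 and of the neutrophil list without Ltf and Lcn2, alternatives chosen after seeing the data, moved in all 5 conditions. Counts close to the limit of 3 restrict what can be said of Cd79a and S100a9, and depth of single libraries was not analysed here.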
